A study of Mus musculus with 4 samples.

Results

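NF-κB is a family of transcription factors that switch on inflammatory genes, and 10 genes of its pathway were examined in mouse liver: the subunit genes Nfkb1, Nfkb2, Rela and Relb, the inhibitors Nfkbia, Nfkbie and Tnfaip3, the cofactor Bcl3, and the adhesion targets Icam1 and Vcam1. Genes were taken from this list by symbol, together with every probe set that the platform annotation assigns to them, and the rule uses no measured value. The list itself was chosen with earlier results of these data known. Of the 10 genes, 9 had a probe set, with 18 probe sets among the 45101 on the array and 9 genes among 18194 measured genes. Nfkb1 had none under its symbol and was not analysed here.

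The study asked how livers with reduced ribosomal protein S6 respond in the absence and presence of extra c-Myc, and whole-liver mRNA was measured on 4 Affymetrix mouse GeneChips, 1 for each genotype. By their labels all mice were non-fasted 5-week-old males, and each array received equal amounts of RNA from 3 livers. WT mice carried the floxed Rps6 lox/lox alleles without Cre, and ΔS6 mice carried Rps6 lox/lox with Alb-Cre, in which the albumin promoter drives Cre in hepatoblasts and their descendants and deletion is incomplete. Alb-c-Myc mice carried a c-Myc transgene under the albumin promoter with intact Rps6, and ΔS6:c-Myc mice carried both the deletion and the transgene. Values are RMA expression values on the log2 scale, a difference of 1 between arrays is a 2-fold difference, and "at least 2-fold" below means a log2 ratio of at least 1 or at most -1. Because each genotype is 1 pooled array, no comparison has a replicate check, no p-value is given, and the spread between mice is not visible.

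In resting cells NF-κB dimers are held in the cytoplasm by IκB proteins such as those encoded by Nfkbia and Nfkbie. Signals from TNF, interleukin-1 and Toll-like receptors reach the IκB kinases, the IκB protein is degraded, and dimers that contain Rela enter the nucleus, whereas a slower route processes the Nfkb2 precursor and releases dimers with Relb. Several of the genes that NF-κB switches on encode its own brakes, among them Nfkbia, Nfkbie and Tnfaip3, and in liver the adhesion molecules Icam1 and Vcam1 on endothelial and other cells bind integrins of white blood cells.

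RefSeq promoter windows (GRCm38.p6) were found for 7 of the 10 genes, 10 windows in all, and Nfkb1, Relb and Vcam1 had no entry. The 250 bases upstream of each start were searched on both strands for the 10-base κB consensus and for the 9 letters GGANNTTCC, which overlap the consensus in many places, and the 9 letters were chosen with part of these windows seen. The consensus was present in 7.25% of the 32851 RefSeq windows of this length and in 6 of the 10 windows of the pathway genes. These belong to 4 of the 7 genes, Nfkb2, Nfkbia, Nfkbie and Tnfaip3, where 8.23% of the 27025 genes with a window held it. Several of the windows are alternative starts of Nfkb2, so windows are not separate units. GGANNTTCC was present in 3.59% of all windows and in 6 of the 10 windows, adding Icam1. By gene it was present in 5 of the 7, where 4.12% of all genes held it. The windows of Rela and Bcl3 and a downstream window of Tnfaip3 held neither. A match describes these letters only and was not linked to binding, which these arrays do not measure. Windows of 5 genes are shown 5′ to 3′ toward the start, since they include the feedback inhibitors and an adhesion target whose mRNAs are compared below, and capitals mark every match to either pattern.
Nfkbia, chr12:55492648-55492897, minus strand: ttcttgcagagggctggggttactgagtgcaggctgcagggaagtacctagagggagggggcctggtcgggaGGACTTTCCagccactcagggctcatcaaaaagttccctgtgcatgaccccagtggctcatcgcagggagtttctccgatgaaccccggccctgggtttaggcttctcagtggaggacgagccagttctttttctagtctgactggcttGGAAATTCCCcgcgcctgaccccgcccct
Nfkbie, chr17:45555450-45555699, plus strand: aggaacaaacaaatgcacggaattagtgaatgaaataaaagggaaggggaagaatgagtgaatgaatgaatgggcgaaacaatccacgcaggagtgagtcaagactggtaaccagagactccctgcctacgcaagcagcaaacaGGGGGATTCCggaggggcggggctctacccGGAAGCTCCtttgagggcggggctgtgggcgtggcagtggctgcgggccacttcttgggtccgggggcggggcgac
Tnfaip3, chr10:19015411-19015660, minus strand: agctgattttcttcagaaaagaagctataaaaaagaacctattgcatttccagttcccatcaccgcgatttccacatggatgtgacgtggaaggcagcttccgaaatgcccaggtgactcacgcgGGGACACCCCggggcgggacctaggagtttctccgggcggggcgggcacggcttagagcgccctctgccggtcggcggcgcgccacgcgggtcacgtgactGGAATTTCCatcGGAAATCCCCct
Nfkb2, chr19:46304487-46304736, plus strand: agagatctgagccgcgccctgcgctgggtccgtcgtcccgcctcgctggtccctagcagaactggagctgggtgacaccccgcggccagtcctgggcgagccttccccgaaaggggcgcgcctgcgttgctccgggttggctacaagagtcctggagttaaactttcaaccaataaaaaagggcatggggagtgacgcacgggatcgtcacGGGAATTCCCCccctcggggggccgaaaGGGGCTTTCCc
Icam1, chr9:21015690-21015939, plus strand: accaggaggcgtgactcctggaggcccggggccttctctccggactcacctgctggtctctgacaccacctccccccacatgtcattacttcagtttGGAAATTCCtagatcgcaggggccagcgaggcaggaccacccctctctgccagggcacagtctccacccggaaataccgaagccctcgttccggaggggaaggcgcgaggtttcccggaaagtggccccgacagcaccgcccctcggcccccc
In Nfkbia a consensus match lies 29 to 20 bases before the start, and in Tnfaip3 the matches nearest the start lie 24 to 16 and 12 to 3 bases before it. Nfkb2 has matches 39 to 29 and 11 to 2 bases before its start. The Icam1 window has its GGANNTTCC match farther away, 153 to 145 bases before the start, and no consensus match.

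The arrays followed their labels on Myc and on most Rps6 probe sets, and the WT array carried further RNAs that bear on its use as the reference. Myc read 8.33 on WT, 8.89 on ΔS6, 11.68 on Alb-c-Myc and 11.37 on ΔS6:c-Myc. Of the targeted gene, 9 probe sets that also match the pseudogene Rps6-ps4 were all lower after deletion, with medians of -0.29 in ΔS6 over WT and -1.76 between the arrays with c-Myc, while the 2 that match only Rps6 had opposite signs (-0.79 and 1.47 in ΔS6 over WT). The WT array held Xist at 11.84, against 5.88 to 6.33 on the other 3 arrays, beside Y-linked mRNAs such as Kdm5d on every array, and all 8 measured pancreatic acinar mRNAs stood at least 2-fold above their ΔS6 values. Xist is an RNA of female cells, so its WT value is at odds with the all-male label. The part of sex in ratios over WT was not tested. For the 9 genes, ratios of ΔS6 over WT are therefore followed by those over Alb-c-Myc. Albumin mRNA was level (15.38 to 15.46), at the top of the array scale, where differences may be compressed. The 8 hepatocyte markers had mean values of 14.73, 14.58, 14.68 and 14.60. These are on WT, then ΔS6, then Alb-c-Myc, then ΔS6:c-Myc, the order used for every set of 4 values below.

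In ΔS6 livers, mRNAs of the NF-κB subunit Relb and of the adhesion molecules Icam1 and Vcam1 were 6- to 8-fold higher than in WT. The inhibitor Tnfaip3 was nearly 6-fold higher, and the IκBα gene Nfkbia was almost level. These are values of the brightest probe set of each gene. Other probe sets gave log2 ratios of 0.59 for Tnfaip3 and 3.18 and 1.23 for Vcam1. At least 2-fold higher were 7 of the 9 measured genes, where 7.24% of all genes were, and 0 of 9 were at least 2-fold lower, where 2.54% were. The median log2 ratio over the 9 genes was 1.46, beside -0.05 over all 18194 genes. Among the 13890 genes with a mean value of at least 6 the higher share was 8.80%. Against Alb-c-Myc instead of WT all 9 ratios were again above 0, with 7 of 9 at least 2-fold higher (1274 of 18194 genes) and a median of 1.44. Markers of macrophages (11 of 12) and neutrophils (7 of 11) were at least 2-fold higher on the same array, and their part in these values was not tested. In whole liver, more RNA per cell and more cells of a type that carries the mRNA cannot be told apart. Probe sets of the same gene, each with a mean value of at least 8, differed in this ratio with an SD of 0.27 (3379 genes, 8477 probe sets), which describes probe sets and not mice.

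Among the subunits, Relb, the partner of the Nfkb2 product in the slower route, differed the most. Its probe set read 6.18 on WT, 9.09 on ΔS6, 6.52 on Alb-c-Myc and 8.21 on ΔS6:c-Myc. The arrays with Rps6 deletion were both above the arrays without it. The ratio of ΔS6 over WT was 2.91 (7.52-fold), 0.621% of all genes had a higher ratio, and over Alb-c-Myc the ratio was 2.57. Its WT and Alb-c-Myc values lie below the array medians (6.85 to 6.88), where ratios are less certain.

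Rela encodes the subunit with the strongest activation domain of the classical route. It read 11.16, 11.93, 11.36 and 12.04, so that both arrays with Rps6 deletion were again higher, here with ΔS6:c-Myc as the highest. Its ΔS6 over WT ratio of 0.77 (1.71-fold) is the nearest below the 2-fold limit, and over Alb-c-Myc it was 0.57.

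Nfkb2, which encodes the precursor processed in the slower route, gave an answer that depended on the probe set. Probe set 1425902_a_at read 8.14, 9.39, 8.17 and 8.98, a ΔS6 over WT ratio of 1.25 (2.38-fold) and 1.22 over Alb-c-Myc. Probe set 1429128_x_at, whose name marks probes that may bind other transcripts, read 8.31, 8.35, 8.35 and 8.41, a ratio over WT of 0.04. The mean of both probe sets gave 0.64, under 2-fold.

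Of the inhibitors, Tnfaip3, a ubiquitin-editing enzyme that ends signaling upstream of the IκB kinases, read 7.17, 9.74, 7.66 and 8.26 on its brighter probe set. ΔS6 stood above the other 3 arrays, with a ratio over WT of 2.57 (5.92-fold) and over Alb-c-Myc of 2.07. The dimmer Tnfaip3 probe set, 1450829_at, read 6.68, 7.26, 6.74 and 6.96, the same order of arrays with a ratio of 0.59.

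Nfkbie, which encodes the inhibitor IκBε, read 5.91, 7.37, 5.93 and 6.20 on 1431843_a_at and 5.56, 7.81, 5.02 and 5.88 on 1458299_s_at. On both probe sets ΔS6 was the only array above 7, and the other 3 arrays were dim. The ratios over WT were 1.46 (2.76-fold) and 2.25, and over Alb-c-Myc 1.44 and 2.80.

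Nfkbia encodes IκBα, the inhibitor that NF-κB resynthesizes after each round of activation. Its brightest probe set read 12.76, 13.02, 12.72 and 12.58, values that lie close together. All 5 of its probe sets were higher on ΔS6 than on WT, by 0.17 to 0.33, and all 5 were lowest on ΔS6:c-Myc. Over Alb-c-Myc the ratio of the brightest was 0.30. These differences are close to the SD between probe sets. The Nfkbia and Tnfaip3 windows shown above both carry κB matches within 30 bases of the start. Their ΔS6 over WT ratios were 0.27 and 2.57 on the brightest probe sets, and 0.59 on the dimmer Tnfaip3 probe set. Any link between these letters and the ratios was not tested.

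Bcl3 encodes an IκB-like nuclear protein that joins NF-κB dimers on DNA as a cofactor. It read 8.90, 9.91, 8.77 and 9.39, highest on ΔS6 and next on ΔS6:c-Myc. Its ratio over WT of 1.01 (2.01-fold) is the nearest above the 2-fold limit, and over Alb-c-Myc it was 1.14. With each array centered on its median or quantile normalized again the ratio over WT was 0.99 or 0.87.

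Both adhesion targets were higher on ΔS6. Icam1, which binds the β2 integrins of white blood cells, read 8.18, 10.80, 8.40 and 10.18, so that the arrays fell into a high pair with Rps6 deletion and a low pair without it. Its ΔS6 over WT ratio was 2.62 (6.16-fold), and over Alb-c-Myc 2.41.

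Vcam1, which binds the α4 integrins of lymphocytes and monocytes, read 8.21, 10.83, 8.46 and 9.58 on 1415989_at. Its other probe sets read 7.98, 11.15, 8.21 and 9.61 (1448162_at) and 8.53, 9.76, 8.38 and 8.72 (1451314_a_at). ΔS6 was the highest array and ΔS6:c-Myc the next on all 3, with ΔS6 over WT ratios of 2.62, 3.18 and 1.23. Over Alb-c-Myc the ratios were 2.38, 2.94 and 1.38. Counted by probe set instead of by gene, 10 of the 18 probe sets were at least 2-fold higher on ΔS6 than on WT, where 6.08% of 34958 probe sets were, and all 18 were above 0.

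**Figure D1:**
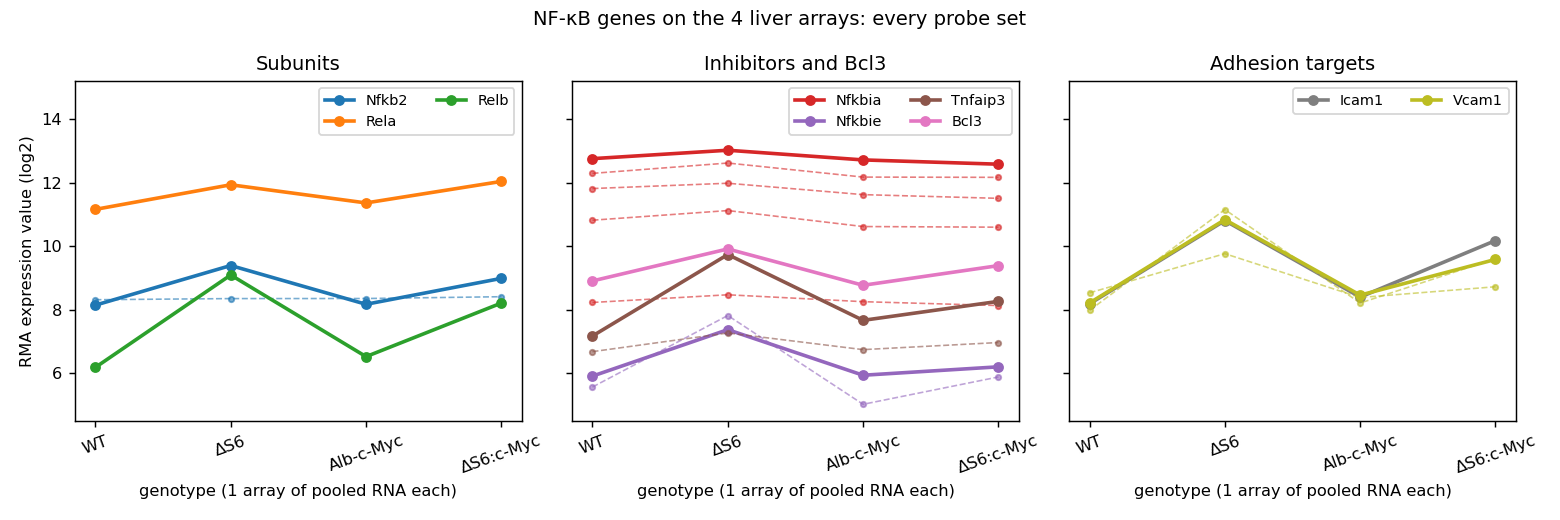
RMA expression values (log2, vertical axis) of every probe set of the 9 measured genes on the 4 arrays (horizontal axis, 1 pooled array per genotype); thick lines are the probe set with the highest mean, which stands for the gene, and thin dashed lines the other probe sets of that gene in the same color. Relb, Tnfaip3, Icam1 and Vcam1 peak on ΔS6, and Nfkbia stays between 12.58 and 13.02 on its brightest probe set.

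Rps6 deletion was read again in livers with the c-Myc transgene, in a pair of arrays that shares no array with the pair above. The pairs differ in Rps6 mRNA: the 9 probe sets that also match Rps6-ps4 had medians of -1.76 here and -0.29 above. In ΔS6:c-Myc relative to Alb-c-Myc, Icam1 was 3.43-fold higher, Relb 3.22-fold and Vcam1 2.18-fold. Those were the 3 of 9 genes at least 2-fold higher (1.99% of all genes), and 0 of 9 were at least 2-fold lower (1.36%). The median log2 ratio was 0.68, beside -0.01 over all genes. The log2 ratios were 1.78 for Icam1, 1.69 for Relb and 1.12 for Vcam1, and only 0.434%, 0.478% and 1.45% of all genes had higher ratios. Vcam1 differed between probe sets, with 1.12, 1.40 and 0.34, and the mean of all 3 gave 0.95, under 2-fold.

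The other genes were higher by less or level. Nfkb2 had a ratio of 0.82, Rela 0.68, Bcl3 0.62 and Tnfaip3 0.60. For Nfkbie it was 0.27, and on its other probe set 0.86. Nfkbia was slightly lower, at -0.13, and its 5 probe sets ranged from -0.13 to -0.01. The SD between probe sets of a gene in this comparison was 0.24.

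Set side by side, the ratio with c-Myc as a percentage of the log2 ratio without it was 87.5% for Rela, 67.9% for Icam1, 65.4% for Nfkb2, 61.5% for Bcl3, 58.0% for Relb, 42.9% for Vcam1, 23.3% for Tnfaip3 and 18.1% for Nfkbie. On these probe sets the feedback inhibitors Tnfaip3 and Nfkbie had the smallest percentages among the 8 genes with a positive ratio in both pairs. The ranking depends on the probe set: the other sets gave 38.1% for Tnfaip3, 38.2% for Nfkbie, 44.0% and 27.5% for Vcam1 and 160% for Nfkb2, the last from a nearly level profile. As a difference of log2 ratios, with c-Myc minus without, the 9 genes had a median of -0.84 (range -1.97 to -0.10), beside 0.03 over all genes. The ratio subtracted is that of ΔS6 over WT, where the 9 genes had a median of 1.46, so values below 0 are favored by construction. Over all genes too, fewer were at least 2-fold higher with c-Myc (362) than without it (1318). A value below 0 is therefore not read as particular to these genes. At or below -1 were Tnfaip3 (-1.97), Vcam1, Relb (-1.22) and Nfkbie (-1.20), 4 of 9, and 839 of the 18194 genes. The pairs also differed in how far Rps6 mRNA was lowered. With 1 array per genotype these differences between log2 ratios were not tested.

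**Figure D2:**
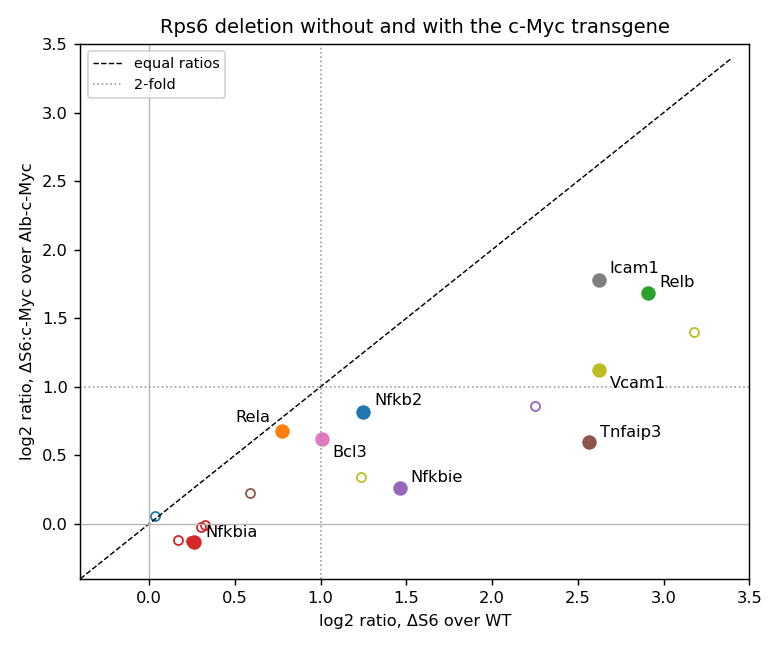
Log2 ratio of ΔS6 over WT (horizontal axis) against that between the arrays with c-Myc (vertical axis); filled points are the probe set that stands for each gene, open points its other probe sets in the same color, and the dashed line marks equal ratios. Among the filled points Rela lies nearest the line at 0.77 and 0.68, while Tnfaip3 lies far below it at 2.57 and 0.60.

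Livers with both the deletion and the transgene stood above WT for Relb, Icam1, Vcam1 and Tnfaip3. In ΔS6:c-Myc over WT the ratios were 2.03 for Relb (4.07-fold), 1.99 for Icam1 (3.98-fold), 1.37 for Vcam1 and 1.09 for Tnfaip3. At least 2-fold higher were 4 of 9 genes (3.00% of all genes) and 0 of 9 were at least 2-fold lower (1.80%). Tnfaip3 was under 2-fold, at 0.69, as the mean of its probe sets. Rela (0.88), Nfkb2 (0.84), Bcl3 (0.48) and Nfkbie (0.29) were higher by less than 2-fold, and Nfkbia was at -0.17.

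Compared directly with ΔS6, the ΔS6:c-Myc array was at least 2-fold lower for 3 of 9 genes (4.29% of all genes) and at least 2-fold higher for 0 of 9 (0.769%). Lower were Tnfaip3 (-1.48), Vcam1 (-1.25) and Nfkbie (-1.17). Relb (-0.88), Icam1 (-0.63), Bcl3 (-0.53), Nfkbia (-0.44) and Nfkb2 (-0.40) were lower by less, and Rela was at 0.11. All 3 Vcam1 probe sets and both Nfkbie probe sets were at least 2-fold lower, whereas the dimmer Tnfaip3 probe set was at -0.30 and the mean of both at -0.89, under 2-fold. These comparisons share the ΔS6, WT and ΔS6:c-Myc arrays with those above and are not independent of them.

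The transgene alone left the 9 genes within 2-fold of WT. In Alb-c-Myc over WT, 0 of 9 were at least 2-fold higher (0.418% of all genes) and 0 of 9 at least 2-fold lower (0.335%). Their median was 0.20, beside 0.00 over all genes. Tnfaip3 had the highest ratio, 0.49, followed by Relb (0.34), Vcam1 (0.25), Icam1 (0.21) and Rela (0.20). Nfkb2 and Nfkbie were both at 0.03, Nfkbia at -0.04 and Bcl3 at -0.14. The middle 95% of all genes ran from -0.40 to 0.48 in this comparison, with an SD between probe sets of 0.14. Tnfaip3 lay just above that range on its brighter probe set and was at 0.06 on the other.

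On the probe set that stands for each gene, 6 genes shared the order ΔS6, ΔS6:c-Myc, Alb-c-Myc, WT from high to low: Nfkb2, Relb, Nfkbie, Tnfaip3, Icam1 and Vcam1. Bcl3 had Alb-c-Myc below WT, Rela had ΔS6:c-Myc above ΔS6, and Nfkbia had ΔS6:c-Myc as the lowest array. Other probe sets broke the order for Nfkbie and Vcam1, with WT above Alb-c-Myc, and for Nfkb2, with ΔS6:c-Myc as the highest array. Within the orders of the brightest probe sets WT and Alb-c-Myc differed by less than 0.14, the SD between probe sets, for Nfkb2, Nfkbie and Nfkbia and by about as much for Bcl3. That SD comes from probe sets with a mean value of at least 8, and those of Nfkbie are dimmer, so it may be too small for this gene. Rela differed between ΔS6 and ΔS6:c-Myc by 0.11, also less than the SD of 0.20 in that comparison. The dimmer Nfkbie probe set differed between Alb-c-Myc and WT by -0.54, and the 5 Nfkbia probe sets by -0.20 to 0.03.

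**Figure D3:**
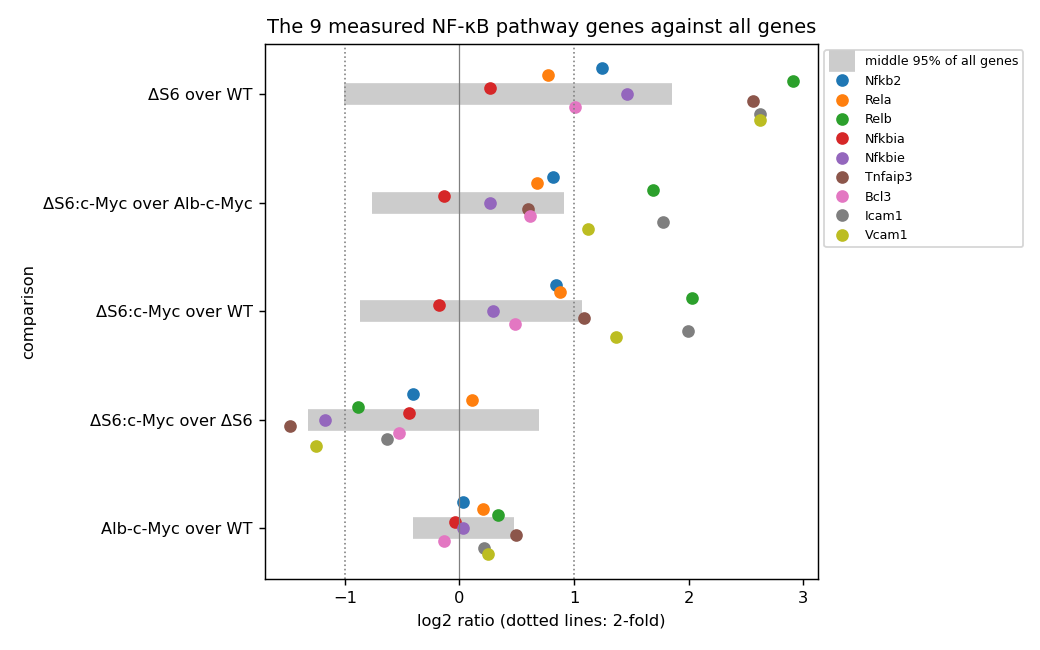
Log2 ratios (horizontal axis) of the 9 measured genes in 5 comparisons of arrays (vertical axis), with gray bars for the middle 95% of all 18194 genes; points are spread vertically for legibility. In ΔS6 over WT the bar runs from -1.01 to 1.85 and Relb, Tnfaip3, Icam1 and Vcam1 lie to its right.

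The remaining genes of the pathway, taken from lists of subunits, kinases, receptors, ligands and targets, differed less than the 9 genes as lists. Of the 4 other subunit and IκB genes, 1 was at least 2-fold higher on ΔS6 than on WT. This was Nfkbiz, a nuclear IκB protein, which read 8.22, 10.12, 8.14 and 8.21 and so was high on ΔS6 alone (1.90, and 0.07 in ΔS6:c-Myc relative to Alb-c-Myc). Rel, the subunit of lymphoid cells, was dim on every array (5.40 to 5.83), Nfkbib was at -0.29 and Nfkbid at 0.11. The list medians were 0.12 without and 0.25 with c-Myc.

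Of 19 measured kinases and ubiquitin regulators, 2 were at least 2-fold higher and 0 lower on ΔS6 (median 0.09), near the shares over all genes. Higher were Map3k8 (1.16), a kinase of the Toll-like receptor route, and Tnip1 (1.07), which binds the Tnfaip3 protein. Itch, a ubiquitin ligase that works with Tnfaip3, had the lowest ratio, -0.80, followed by Tab3 and Otulin, both at -0.21. With c-Myc 0 of 19 passed 2-fold in either direction (median 0.14).

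Receptors and adaptors upstream were mostly level, with 4 of 23 at least 2-fold higher, 1 lower and a median of 0.20 in ΔS6 over WT. Higher were Cd14 (4.86), the co-receptor for bacterial lipopolysaccharide, Tnfrsf12a (3.54), the receptor for TWEAK, Irak3 (2.85), an inhibitory kinase of the Toll-like receptor route, and Tlr2 (2.13). Il1rap, the accessory chain of the interleukin-1 receptor, was lower at -2.23, and Tnfrsf1b was at -0.32. With c-Myc the count was 2 higher, Cd14 and Tnfrsf12a (1.58 each), and 1 lower, Il1rap (-1.68), with a median of 0.06.

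The ligand mRNAs gave 1 of 10 higher and 0 lower, also near the shares over all genes, with a median of 0.03. Ltb encodes lymphotoxin β, a ligand of the slower route. It was high on ΔS6 alone, at 2.11 over WT and 0.75 in ΔS6:c-Myc relative to Alb-c-Myc. Il1b was at 0.87 and Tnf at 0.02, with values of 6.64 to 6.70 on all 4 arrays. Cd40lg (-0.49) and Lta (-0.22) had the lowest ratios. With c-Myc 0 of 10 passed 2-fold (median -0.04).

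Of 27 other target genes of NF-κB, 10 were at least 2-fold higher on ΔS6 and 0 lower (median 0.47), led by Lcn2 (5.15), an iron-binding protein, and Saa3 (4.27), an acute phase protein. The 2 lowest, Plau (-0.44) and Nos2 (-0.38), were dim on every array (5.71 to 6.35), where ratios are less certain. Among brighter targets Csf1 was at -0.35 and Sod2 at -0.14. Of the 27 targets 20 were above 0 and 17 were within 2-fold, so the list did not move as a block. With c-Myc 3 of 27 were higher and 0 lower (median 0.16): Lcn2 (1.65), the chemokine Cxcl10 (1.46) and Ier3 (1.42), an early response gene. Saa3 read 9.22, 13.49, 9.62 and 9.61 and was thus level between the arrays with c-Myc. Cxcl10 read 7.59, 10.41, 8.32 and 9.78, and like Icam1 and Relb it was higher on both arrays with Rps6 deletion.

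Some adhesion genes outside the 9, and some of the integrins that bind adhesion molecules, were also at least 2-fold higher on ΔS6 without c-Myc. Of 12 other adhesion molecules of endothelium, 5 were at least 2-fold higher and 0 lower (median 0.73), with the highest ratios for Cd34 (2.13) and Mcam (1.85) and the lowest for Madcam1 (-0.55) and Jam3 (-0.07). Sele, the E-selectin gene and a classical NF-κB target, was dim on every array (4.51 to 4.66). With c-Myc 1 of 12, Alcam (1.07), was higher (median 0.07), whereas Icam1 and Vcam1 were at 1.78 and 1.12.

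Of 8 integrin chains, 5 were higher and 0 lower in ΔS6 over WT (median 1.27). Itgb2 and Itgal, the chains of the Icam1 receptor, had ratios of 2.95 and 2.11, and Itga4, a chain of the Vcam1 receptor, read 7.50, 8.99, 7.47 and 7.76. The lowest were Itgb1 (0.19) and Itgb7 (0.01). With c-Myc 0 of 8 passed 2-fold (median 0.26), and Itgb2 had the highest ratio, 0.94.

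**Figure D4:**
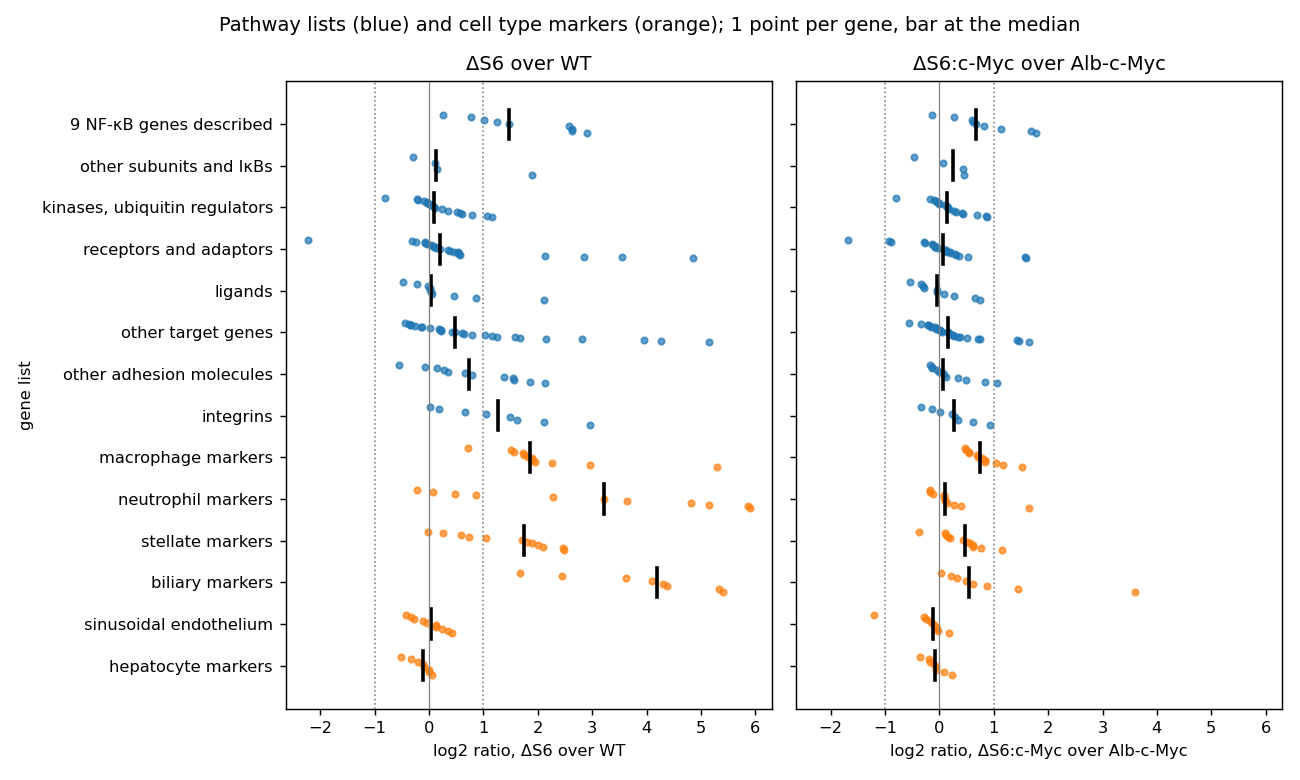
Log2 ratios (horizontal axes) of the genes of each list (vertical axis) for ΔS6 over WT, left, and ΔS6:c-Myc relative to Alb-c-Myc, right; each point is a gene, black bars are list medians, blue marks pathway lists and orange markers of cell types. The 9 NF-κB genes have medians of 1.46 and 0.68, and the medians of the macrophage markers are 1.86 and 0.75.

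Markers of several other cell types were higher on the same arrays as the NF-κB genes. Of 12 macrophage and Kupffer cell markers, 11 were at least 2-fold higher in ΔS6 over WT (median 1.86, from Clec4f at 0.71 to Marco at 5.29) and 3 in ΔS6:c-Myc relative to Alb-c-Myc (median 0.75). Their mean log2 values were 9.44, 11.55, 9.30 and 10.11, highest on ΔS6 and next on ΔS6:c-Myc as for Relb, Icam1 and Vcam1. The means of the neutrophil, biliary and stellate cell markers below had the same highest and next array. Neutrophil markers were higher without c-Myc, 7 of 11 with a median of 3.21 (from Cxcr2 at -0.22 to S100a9 at 5.90), and close to level with it, where only Lcn2, also on the target list, passed 2-fold (median 0.10). Their mean values were 6.89 on WT, 9.80 on ΔS6 and 6.79 on Alb-c-Myc.

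Biliary and progenitor markers had mean values of 7.33, 11.23, 7.26 and 8.21, with 8 of 8 higher without c-Myc (median 4.20, from Cdh1 at 1.68 to Cd24a at 5.40) and 2 of 8 with it (median 0.55). Stellate cell and fibroblast markers had mean values of 9.58, 11.00, 9.58 and 9.98, with 8 of 12 higher without c-Myc (from Lrat at -0.01 to Col1a1 at 2.49) and 1 of 12 with it. Of the 7 measured B and plasma cell markers 2 were higher on ΔS6 (from Ms4a1 at -0.28 to Jchain at 3.49), and of the 7 measured T cell markers 0 were (from Cd4 at -0.26 to Cd3d at 0.47). Taken over Alb-c-Myc instead of WT, the counts at least 2-fold higher on ΔS6 were 2 of 10 for ligands, with Il1b (1.34) added, 11 of 27 for targets, with Mmp9 (1.02) added, 9 of 12 for stellate cell markers and 1 of 7 for B and plasma cell markers. The other pathway and marker lists of liver cells had the same counts, although among the kinases and regulators Tab2 (1.04) took the place of Tnip1 (0.90). RMA values have no zero, so no marker is read as absent. The part of these cell types in the values of the NF-κB genes was not tested.

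Sinusoidal endothelial markers did not show the ratios of Icam1 and Vcam1. In ΔS6 over WT 0 of 10 passed 2-fold in either direction (median 0.04, from Clec4g at -0.42 to Fcgr2b at 0.42), with mean values of 10.19, 10.20, 9.89 and 9.68. Of the 12 other endothelial adhesion molecules above, 5 were at least 2-fold higher in that comparison (median 0.73). The part of endothelial cells in the values of Icam1 and Vcam1 was not tested. Between the arrays with c-Myc 0 sinusoidal markers were higher and 1, Lyve1 (-1.20), was lower (median -0.12). Hepatocyte markers were likewise within 2-fold, 0 of 8 with a median of -0.11 (from Apob at -0.52 to Cps1 at 0.06). They lie near the top of the array scale, so level values are not read as unchanged hepatocyte content.

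Genes with the profile most like those of Relb, Icam1, Vcam1 and Nfkbia were sought among 11499 genes with a mean value of at least 7, by the root-mean-square distance between profiles over the 4 arrays after each was centered on its own mean. Nearest to Icam1 were Klf6 (distance 0.0405), Tuba8 (0.0768) and Acot9 (0.0888). Klf6, a zinc-finger transcription factor, read 7.31, 10.02, 7.52 and 9.37, and it was also the nearest gene to Relb (0.0973), ahead of Gipc2 (0.0999) and Nipal2 (0.110). Vcam1 was nearest to Evi2a (0.0525), Tmem71 (0.0757) and Lgals1 (0.0829), which encodes galectin-1 and read 9.89, 12.45, 10.20 and 11.10. Nfkbia, with its nearly level profile, was nearest to Gabbr1 (0.0105), Lrch3 (0.0115) and Peak1 (0.0221). A likeness over 4 arrays is a description of these profiles only.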

How the data were processed

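Whole-liver RNA of 3 mice per genotype was pooled in equal amounts and hybridized to 1 Affymetrix mouse array each. Values had been deposited on the log2 scale, after RMA and quantile normalization by the authors. RMA and affy are named in the submitters' processing notes, with versions not given in the sources used here. Array medians ran from 6.85 to 6.88 and the lowest values from 3.61 to 3.66. Probe intensities and detection calls were not analysed here, so the error of a dim value is unknown.

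Gene symbols came from the platform annotation: of 45101 probe sets, 34958 had 1 symbol, 932 several and 9211 none, and only the first kind was used. The probe set that was brightest on average stood for its gene. Log2 ratios were differences of deposited values, counted at 2-fold, with the same counts and medians over all 18194 genes. The 10 genes, the 7 pathway lists, the 10 marker lists and the motif letters were chosen with earlier results of these data known. Named genes were the 10 genes with every probe set, for each other list up to 4 genes of the highest and lowest ratios in ΔS6 over WT (for marker lists mostly 1 of each) and genes with a classical role or counted in a sentence, the 3 nearest profiles to Relb, Icam1, Vcam1 and Nfkbia, and Rps6, Myc and sex chromosome genes as checks. Alternatives were the mean of all probe sets, leaving out probe sets ending in _x_at or _s_at, centering on array medians, renewed quantile normalization, raising values below 6 to 6, Alb-c-Myc in place of WT, thresholds of 1.5-fold and 4-fold, and, chosen after seeing the data, counting by probe set. Counting was tested on simulated data. Promoter sequences were taken from RefSeq (GRCm38.p6). Python 3.11.15, numpy 2.4.6, pandas 2.3.3 and matplotlib 3.10.9 were used.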

Additional observations from a re-analysis of the deposited data

Results flagged for a closer look

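Nfkbia, the IκBα gene, went opposite ways in the pair of arrays without c-Myc and the pair with it. Its log2 ratio was 0.27 in ΔS6 over WT and -0.13 in ΔS6:c-Myc relative to Alb-c-Myc, and each of its 5 probe sets had the same pair of signs. The ratios are no larger than the SD between probe sets of a gene, 0.27 and 0.24, and with 1 array per genotype the difference between them was not tested.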

How the results depend on the processing

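No paired analysis was possible because each genotype is 1 pooled array, and for the same reason no replicate could be left out. No ratio of the 9 genes that was at least 2-fold changed direction under the alternatives run. In ΔS6 over WT the count of genes at least 2-fold higher was 7 and became 4 at 4-fold (1.98% of all genes), and it was 6 with the mean of probe sets, without Nfkb2, and 6 with either renewed scaling, without Bcl3. In ΔS6:c-Myc relative to Alb-c-Myc the count was 3 and became 7 at 1.5-fold (6.82% of all genes) and 0 at 4-fold (0.286%). In ΔS6:c-Myc over WT it was 4 and became 1 at 4-fold (0.368%). In ΔS6:c-Myc over ΔS6 the count of genes at least 2-fold lower was 3 and became 5 at 1.5-fold (9.35%), 0 at 4-fold (0.841%) and, by probe set, 6 of 18 (3.54% of probe sets), and it was 2 with the mean of probe sets, where Tnfaip3, at -0.89, lost its place. For single genes, 225 of the recomputed ratios moved by less than the SD between probe sets and 18 by more. Many of the 225 could not move. Leaving out probe sets ending in _x_at or _s_at removed none that stood for a gene, and raising values below 6 altered only Nfkbie. Averaging could not alter Rela, Relb, Bcl3 and Icam1, which have 1 probe set each. The SD also comes from probe sets with a mean of at least 8, brighter than those of Relb and Nfkbie. Most of the 18 came from averaging probe sets, which in ΔS6 over WT gave 0.64 for Nfkb2, 1.86 for Nfkbie, 1.58 for Tnfaip3 and 2.34 for Vcam1. Alb-c-Myc as the reference gave 2.57 for Relb and 2.07 for Tnfaip3 in place of 2.91 and 2.57, and left Tnfaip3 in ΔS6:c-Myc livers at 0.60. Depth has no counterpart on these arrays, and ratios of Nfkbie and Relb rest on WT and Alb-c-Myc values between 5.02 and 6.52.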
